A study of Caenorhabditis elegans with 2 samples.

Results

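The 9 genes described here encode subunits of the worm DREAM complex and 1 further chromatin protein of the same genetic class, the class B synthetic multivulva (synMuv B) genes. They are lin-54, lin-9, lin-37, lin-52, lin-53, lin-35, efl-1, dpl-1 and lin-61, and all 9 names are among the 19985 protein-coding genes of the annotation. Where these genes carried MADF-10 was read from chromatin immunoprecipitation followed by sequencing (ChIP-seq) of Caenorhabditis elegans strain OP508. The strain has the mutation unc-119(tm4063) and the integrated transgene wgIs508, which makes MADF-10, a protein with a MADF domain, with a C-terminal GFP-FLAG tag. Both samples were whole young adult hermaphrodites taken 68 h after release of starved L1 larvae, and they form 1 group of 2 biological replicates pulled down with an antibody against GFP. There was no second condition. Both replicates come from the same strain and from whole animals, so the tissue in which a region was occupied is not resolved.

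For each gene, every region was collected whose summit, the position of highest signal, lay in the gene or within 1000 bp upstream of its annotated 5′ end. The values are the authors' signal value per region, which has no common scale between lists. It is therefore given beside the rank of the region in its list, or as log2 of the signal over the median signal of that list. That median was 10.8 among the 25924 regions of replicate 1, 17.9 among the 30000 of replicate 2 and 23.3 among the 30000 of the list pooled from both. The readme files describe these 3 lists as peaks together with background, so a region of low rank need not be a binding site. A region is called reproducible where it is in the authors' list of 1869 regions that passed an irreproducible discovery rate (IDR) threshold. The lowest signal in that list was 92.3. How many reads lie behind each list is unknown here, so no counting error can be attached to a signal value.

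DREAM is a repressor complex named for its parts: a DP protein, a retinoblastoma-like pocket protein, an E2F protein and the MuvB core. LIN-54 in the core and the E2F-DP pair bind DNA, the pocket protein LIN-35 joins the E2F-DP pair to the core, and the complex keeps cell cycle and germline genes low in cells where they are not used. In the worm these genes were found because losing one of them together with a class A gene turns too many epidermal cells into vulva. LIN-61 is not a DREAM subunit: it has MBT repeats and binds methylated histone H3.

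Of the 9 genes, 6 had a reproducible MADF-10 region (lin-54, lin-35, lin-53, lin-9, lin-52 and efl-1), against 7.93% of all protein-coding genes (1584 of 19985). The other 3, lin-37, dpl-1 and lin-61, had none. The genes were chosen by their signal and rank in these same lists, so the count describes them, nothing is read from it and no test was made. The signals fell into a strong set, with lin-54 at 414, lin-35 at 363, lin-53 at 336 and lin-9 at 242 in the pooled list, and a weak pair, lin-52 at 112 and efl-1 at 106. The median of the strongest signal over the 9 genes was 112 with lin-37 set to 0, and over all protein-coding genes it was 0, since 49.6% of them (9906) had a region in the pooled list at all. Each of the 6 genes had exactly 1 reproducible region, and each time it was at the 5′ end: 5 summits lay between 164 and 369 bp upstream and 1 lay 18 bp inside.

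**Figure D1:**
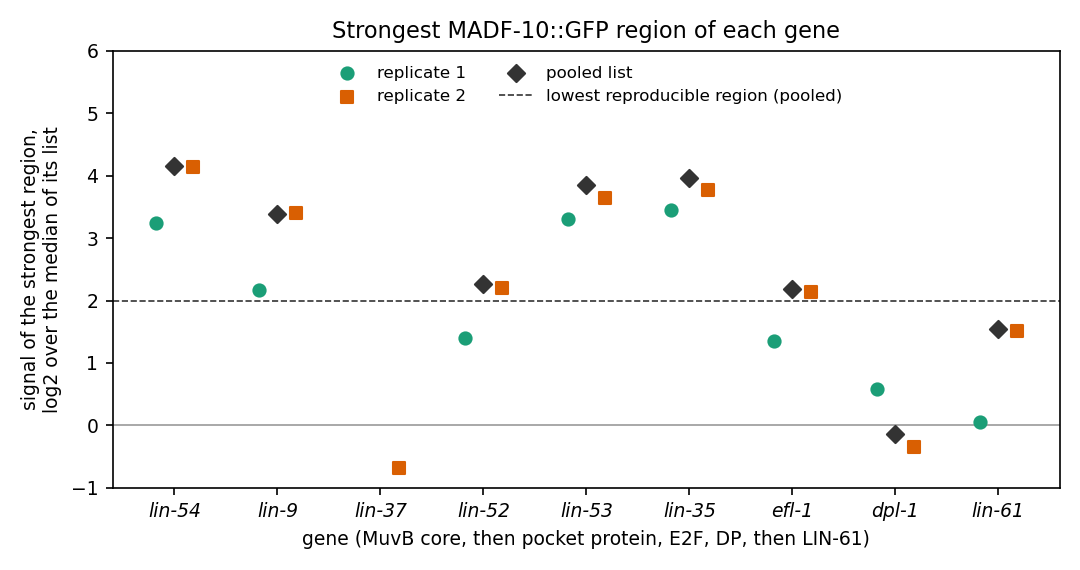
Signal of the strongest region of each gene as log2 over the median of its list (vertical axis), for replicate 1 (circles), replicate 2 (squares) and the pooled list (diamonds), with genes in the order MuvB core, pocket protein, E2F, DP and LIN-61. Points are single values without error bars, the dashed line is the lowest reproducible region (for the diamonds only), and 6 diamonds lie above it, while lin-37 has a single point, from replicate 2.

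lin-54 (WBGene00003037, chromosome IV, 13241044 to 13243401, plus strand), the DNA-binding subunit of the core, had the highest signal of the set in replicate 2 and in the pooled list. In replicate 1 it stood below lin-35 and lin-53. Its region ran from 13240549 to 13240835 with the summit at 13240675, 369 bp upstream of the gene. The signal was 101.9 in replicate 1 (rank 172), 315 in replicate 2 (rank 86) and 414 in the pooled list (rank 96). Over the list medians this came to 3.69 ± 0.64 on the log2 scale (SD, n = 2). No other region of the pooled list lay in lin-54 or its upstream 1000 bp, and only 0.35% of protein-coding genes had a stronger region. The same summit, however, lay 24 bp upstream of rpl-12, a large-subunit ribosomal protein gene that runs the other way, with 392 bp between the pair of genes. By nearest transcript start this region belonged to rpl-12 and not to lin-54.

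The genes with the most similar pair of replicate values to lin-54, among 8363 genes with a region in both replicates, were rpl-29, thoc-7 and drr-2. rpl-29, for another protein of the large ribosomal subunit, and thoc-7, for a subunit of the THO complex of mRNA export, share a single region with a signal of 106 in replicate 1 and 295 in replicate 2, at a distance of 0.11 from lin-54 on the log2 scale. For drr-2 the signals were 105.9 and 278, and the distance was 0.19. The likeness is over 2 samples only.

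lin-9 (WBGene00002998, chromosome III, 8900237 to 8904131, minus strand) encodes a core subunit on which the others assemble. Its region, from 8904181 to 8904402, had its summit at 8904296, 165 bp upstream of the gene. The signal was 48.8 in replicate 1 (rank 839), 189 in replicate 2 (rank 199) and 242 in the pooled list (rank 271). The replicates stood further apart here than at any of the other 5 genes, at 2.17 and 3.40 on the log2 scale over the list median. This region counted for lin-9 alone, because the next gene, unc-32, starts 1483 bp away in the other direction. A second, weak region 934 bp upstream of lin-9 (32.5, rank 8943) was 550 bp upstream of unc-32, which encodes a subunit of the vacuolar proton pump.

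lin-52 (WBGene00003035, chromosome III, 9824083 to 9824750, minus strand) is the shortest gene of the set, at 668 bp, and its product is a small core subunit that contacts the pocket protein. Its reproducible region, from 9824522 to 9824941, was the one with a summit inside the gene, at 9824732 in the first coding exon. The replicates differed in this: the summit was 17 bp inside the gene in replicate 2 and 31 bp upstream in replicate 1. The signal was 28.4 in replicate 1 (rank 2320), 82.6 in replicate 2 (rank 1234) and 112 in the pooled list (rank 1370). Replicate 1 alone thus placed it outside the 1869 strongest regions. ZK632.9 lies 126 bp upstream of lin-52 on the same strand. Its own 5′ end had a region of 50.7 (rank 4537) at 71 bp upstream, 753 bp from lin-52. Just beyond the reach of 1000 bp, 1411 bp from lin-52, lay a region with a signal of 92.2 and rank 1874, a few ranks below the end of the reproducible list.

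lin-37 (WBGene00003022, chromosome III, 7070890 to 7072552, minus strand) encodes another core subunit and was the only gene of the 9 with no region in the pooled list. Replicate 1 had no region there either, and replicate 2 had 1, of 11.2 and rank 27545, at 563 bp upstream. The next gene, ZK418.5, lies 60 bp upstream on the same strand, so most of the 1000 bp searched is the body of that gene. The nearest pooled region upstream lay 1648 bp away with a signal of 54.4, and the nearest reproducible one on the chromosome 15585 bp away.

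efl-1 (WBGene00001161, chromosome V, 16958590 to 16965675, minus strand) encodes the E2F subunit. Its region, from 16965629 to 16966048, had its summit at 16965839, 164 bp upstream. The signal was 27.8 in replicate 1 (rank 2415), 78.7 in replicate 2 (rank 1346) and 106 in the pooled list (rank 1498), the lowest of the 6 reproducible regions. As at lin-52, replicate 1 alone placed it outside the 1869 strongest. The F-box gene fbxa-90 starts 975 bp from this summit on the other strand, just inside the 1000 bp counted. The 2 other pooled regions of efl-1, in introns 5224 and 6481 bp from the 5′ end, had signals of 13.5 and 26.0.

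dpl-1 (WBGene00001061, chromosome II, 9169910 to 9172565, plus strand) encodes DP, the partner that EFL-1 needs to bind DNA. In contrast to efl-1 it had weak regions only. The strongest of its 3 pooled regions lay in an intron 92 bp inside the gene, with a signal of 21.2 (rank 17071), which is below the median of the list. At that place replicate 1 had a region of 16.3 (rank 6190) and replicate 2 had none. The strongest region of dpl-1 in replicate 2, of 14.1 (rank 21096), lay 1721 bp inside the gene. The whole of dpl-1 sits within T23G7.2, a gene on the other strand, and all 3 regions lay in introns of T23G7.2. The nearest reproducible region was 41521 bp from the 5′ end of dpl-1.

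**Figure D2:**
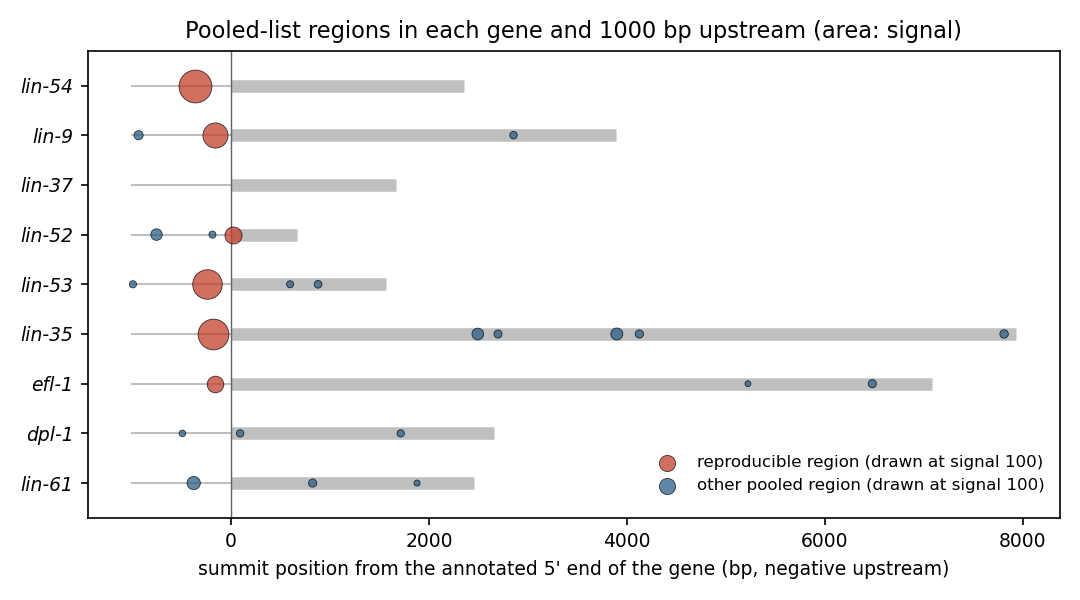
Summits of the regions of the pooled list along each gene (grey bar) and its upstream 1000 bp (thin line), in bp from the annotated 5′ end, with the area of a circle proportional to signal. Each of the 6 genes with a reproducible region (red) has 1, at its 5′ end, and the regions in blue, which are not reproducible, reach a signal of 67.7 at most.

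The sequences under the summits of lin-54, lin-9, efl-1, lin-52 and dpl-1 are shown, 50 bp to either side of the summit of the strongest pooled region. They are from the plus strand of ce11 (WBcel235, RefSeq), 101 bases each. Capitals mark TTTGAA, a form of the cell cycle homology region that LIN-54 recognises (written TTCAAA where it is on the minus strand), and GTGGAGCGC. TTTGAA was 1 of 4 sequences chosen for what DREAM subunits bind. GTGGAGCGC was found in the windows themselves, as the longest sequence shared by at least 3 of the 6 windows with a reproducible region. No 2 of the marked matches overlap. The windows of lin-35, lin-53 and lin-61 are not printed, so the strong set is shown in part only. Of the strong genes left out, lin-35 held neither marked sequence and lin-53 held TTTGAA only.
lin-54 (chrIV:13240625-13240725): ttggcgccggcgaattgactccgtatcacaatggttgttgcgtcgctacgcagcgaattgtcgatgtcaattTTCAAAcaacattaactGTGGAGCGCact
lin-9 (chrIII:8904246-8904346): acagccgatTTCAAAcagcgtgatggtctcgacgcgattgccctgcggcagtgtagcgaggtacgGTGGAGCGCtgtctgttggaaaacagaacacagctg
efl-1 (chrV:16965789-16965889): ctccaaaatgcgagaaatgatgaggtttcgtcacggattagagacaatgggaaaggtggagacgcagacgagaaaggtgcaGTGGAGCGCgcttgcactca
lin-52 (chrIII:9824682-9824782): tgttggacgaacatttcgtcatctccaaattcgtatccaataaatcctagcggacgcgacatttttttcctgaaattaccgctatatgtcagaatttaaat
dpl-1 (chrII:9169952-9170052): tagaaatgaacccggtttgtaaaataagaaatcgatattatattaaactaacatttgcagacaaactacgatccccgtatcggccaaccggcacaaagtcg

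GTGGAGCGC lay in the windows of lin-54, lin-9 and efl-1, that is in 3 of 6, against 1.08% of the windows of reproducible regions (20 of 1847, these 3 included) and 0.142% of those of weak regions (21 of 14838). Weak regions, the comparison set, were pooled regions of below-median signal with no overlap with a reproducible one. On the plus strand it started 39 bp after the summit at lin-54, 15 bp after it at lin-9 and 31 bp after it at efl-1. As lin-54 is on the plus strand and the others are on the minus strand, it is read towards lin-54 and away from lin-9 and efl-1. Where a region is shared, the direction depends on the gene taken. The match in the lin-54 region is read away from rpl-12, whose start is nearer to the summit. That in the efl-1 region is read towards fbxa-90. GTGGAGCGC was picked because the windows share it, so these shares are a description. The windows of lin-35, lin-53 and lin-52 did not hold it, nor did those of dpl-1 and lin-61.

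Of the 4 sequences chosen for DREAM, which were searched on both strands, TTTGAA was in 3 of the 6 windows (lin-54, lin-9 and lin-53), against 13.6% of reproducible and 25.7% of weak regions. The window of lin-61 held it as well. The other 3 were in none of the 6 windows. TTCGAA, the other form searched for LIN-54, was in 6.23% of reproducible and 5.56% of weak regions. Of the cores of E2F sites, GCGGGA was in 4.76% of reproducible and 2.47% of weak regions, while for GCGCGA these shares were 7.15% and 1.59%. With 100 bp to either side, GCGCGA was in 3 of 6 windows (lin-54, lin-35 and lin-9), against 10.7% of reproducible and 3.07% of weak regions, and GCGGGA was in that of efl-1. At this width TTTGAA was in 4 of 6, against 29.3% and 44.4%. A match says only that the letters are there.

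Of the 8 sequences of 6 bases most in excess at the other reproducible regions of protein-coding genes, 4 were in none of these windows and 4 were in 1 or 2 of them. GAGAGA, or its reverse complement, was in 24.7% of 1214 such regions, with those within 200 bp of a tRNA gene left out, against 6.50% of weak regions, and in none of the 6 windows. The efl-1 window held CGTCTC, which was in 18.7% of the other regions against 3.53% of weak ones. ACGCAG, in 16.3% of the other regions against 2.59% of weak ones, was in the windows of lin-54, where it covers the summit, and efl-1. The median GC content of the 6 windows was 50%, against 48.5% for reproducible and 35.6% for weak regions. lin-9 had the highest at 56.4% and lin-52 the lowest at 36.6%, near the weak regions. The reproducible and weak regions were not matched for GC content, and its effect on the shares of sequences given above was not tested. None of the 6 summits was within 200 bp of a tRNA or snoRNA gene. The share of all reproducible regions is not set beside this, so nothing is read from it.

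The remaining genes are lin-35, lin-53 and lin-61. lin-35 (WBGene00003020, chromosome I, 5807709 to 5815637, plus strand) encodes the only retinoblastoma-like pocket protein of the worm. Its region, from 5807393 to 5807669, had its summit at 5807528, 181 bp upstream of the gene. The signal was 118 in replicate 1 (rank 127), 244 in replicate 2 (rank 131) and 363 in the pooled list (rank 122), so the replicates placed it almost at the same rank. Over the list medians it came to 3.61 ± 0.23 on the log2 scale (SD, n = 2). The summit was also 237 bp upstream of vps-51, a gene for membrane traffic that runs the other way from a start 417 bp from that of lin-35. lin-35 had 5 more pooled regions along its body, the most of any gene here. They had signals of 24.9 to 55.0, and the second strongest of them (52.2, rank 4344) lay 201 bp upstream of C32F10.4, a gene inside lin-35 on the other strand.

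lin-53 (WBGene00003036, chromosome I, 9618196 to 9619760, minus strand) encodes the histone-binding subunit of the core, related to human RbAp48 and shared with other chromatin complexes. Its region, from 9619841 to 9620111, had its summit at 9620007, 247 bp upstream, at the same base in both replicates. The signal was 107 in replicate 1 (rank 156), 222 in replicate 2 (rank 155) and 336 in the pooled list (rank 137). That is 3.47 ± 0.23 over the list medians on the log2 scale (SD, n = 2). The region is also 220 bp upstream of nra-2, which runs the other way, so the nearest start was that of nra-2. The paralog of lin-53, rba-1, lies directly downstream of it. The strongest region of rba-1 was a weak one in the body of lin-53, with a signal of 22.9 (rank 15349).

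lin-61 (WBGene00003041, chromosome I, 7248827 to 7251282, minus strand) was the gene closest to the threshold from below. Its strongest region, from 7251449 to 7251868, had its summit 377 bp upstream, with a signal of 67.7 (rank 2973) in the pooled list and 50.9 (rank 2829) in replicate 2. Replicate 1 had no region at that place. The strongest region of lin-61 in replicate 1 lay 827 bp inside the gene, with a signal of 11.2 (rank 12260). The upstream region is shared with bub-1, a spindle checkpoint kinase gene that starts 282 bp away on the other strand. The last gene inside the threshold was efl-1, at 106 and rank 1498.

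Apart from lin-54, the replicates gave the 6 genes the same order. By mean log2 signal over the list median the order was lin-54 (3.69), lin-35 (3.61), lin-53 (3.47), lin-9 (2.79), lin-52 (1.80) and efl-1 (1.75). Because most regions were lower in replicate 1, neighbours in this order were compared within each replicate. lin-54 was lower than lin-35 by a log2 difference of -0.21 in replicate 1 and higher by 0.37 in replicate 2, so the place of lin-54 among the strongest 3 genes was not settled. lin-35 was above lin-53 by 0.14 in replicate 1 and 0.13 in replicate 2. For lin-53 over lin-9 the differences were 1.13 and 0.23, and for lin-9 over lin-52 they were 0.78 and 1.20. lin-52 and efl-1 lay closest together, with lin-52 above by 0.03 and 0.07. The last 4 of these steps thus had 1 sign in both replicates, and with 2 replicates no test was made of them.

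All 6 regions were lower in replicate 1 than in replicate 2 over the list median, as were 81.3% of the 1857 reproducible regions with a region in both replicates. The difference, replicate 1 minus replicate 2, was -0.32 at lin-35 and -0.33 at lin-53 on the log2 scale, close to the median of -0.37 over all those regions. It was further from that median at the others, with -0.78 at efl-1, -0.81 at lin-52, -0.90 at lin-54 and -1.23 at lin-9. The value of lin-9 lies below the 10th percentile of those regions, at -0.97. The positions varied little: the replicate summits were 0 bp apart at lin-53, 11 at lin-35, 12 at efl-1, 14 at lin-9, 16 at lin-54 and 48 at lin-52. Their median was 13 bp, against 25 bp over the 1857 regions.

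**Figure D3:**
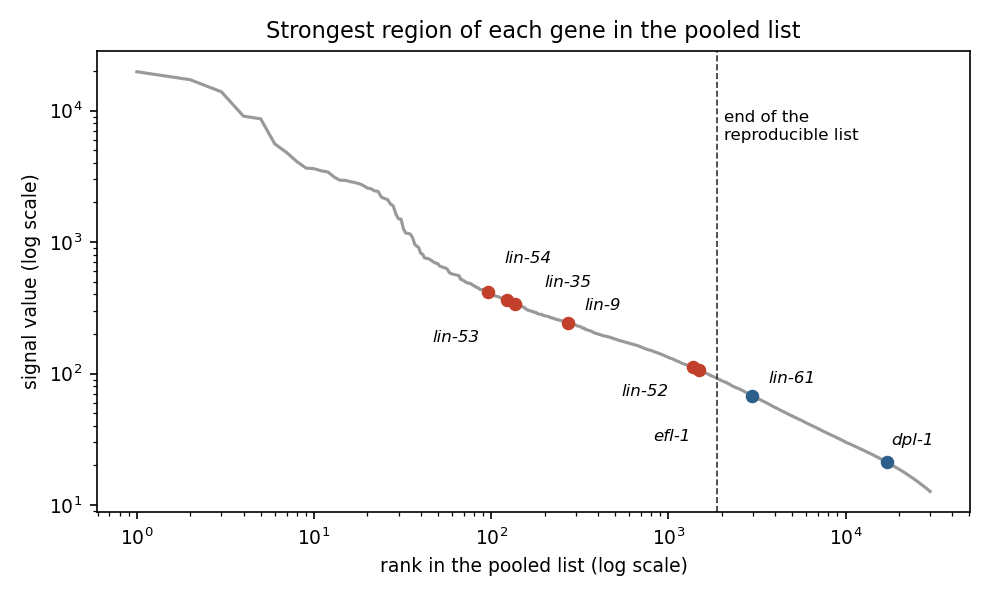
Signal value against rank for the 30000 regions of the pooled list (grey line, both axes on a log scale), with the strongest region of each gene marked. The 6 genes with a reproducible region (red) fall into 4 between ranks 96 and 271 and 2 at ranks 1370 and 1498, and lin-61 and dpl-1 (blue) lie beyond the end of the reproducible list.

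The count of genes depended on the list and on how a shared region was given to a gene. With the 1869 strongest regions of each replicate taken alone, replicate 1 gave 4 of the 9 genes (lin-54, lin-35, lin-9 and lin-53), against 7.69% of all genes, and replicate 2 gave the same 6 as the reproducible list, against 7.9%. With each region counted only for the nearest transcript start, 4 of 9 were left (lin-35, efl-1, lin-9 and lin-52), against 5.91% of all genes. lin-54 lost its region to rpl-12 and lin-53 to nra-2. Within the stronger 50% of the reproducible list, 4 of 9 had a region, against 4.16%. The count stayed at 6 of 9 with a reach of 500 bp, against 6.76% of all genes, and with 2000 bp, against 9.7%. It was also 6 with any overlap of at least 1 bp, against 8.85%, and with promoter windows in place of gene bodies, against 6.39%. With the 2878 strongest pooled regions, which is the number in the authors' reproducible list for build ce10, 6 of 9 had one, against 11.6%.

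Most of the 6 reproducible regions lay between genes that run apart. At 4 of the 6 genes (lin-54, lin-35, lin-53 and efl-1) the reproducible summit was within 1000 bp upstream of both the gene and a gene on the other strand. This held for 30.6% of the 1584 genes with a reproducible region. lin-61 had the same arrangement with its weaker region. The lin-9 region also lay between lin-9 and unc-32 on the other strand, but these genes are 1483 bp apart and unc-32 was out of reach. The summit lay within 400 bp upstream of the 5′ end in 5 of 6 genes, against 46.8% of those 1584. The farthest of these summits, at lin-54, was 369 bp upstream, so this count depends on the width taken and nothing is read from it. The 4 strongest regions were 222 to 287 bp wide, below the usual width of 420 bp, and so were 36.4% of the reproducible regions. The other 20 regions of the 9 genes in the pooled list had signals from 13.5 to 67.7, with a median of 23.9, near the median of the whole list.

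Other genes of the synMuv network were counted in 8 lists of 65 genes in all. These lists too were chosen with earlier results of these data known, so nothing is read from their counts. Of the 65 genes, 14 (21.5%) had a reproducible region by the same rule, against 7.93% of all protein-coding genes. Among 10 other synMuv B genes there were 3: mep-1 (169, 231 bp upstream) and lin-13 (124), which encode zinc finger proteins, and lin-36 (107). Of those without one, lin-15B, met-2 and tam-1 had signals of 48.6 to 58.6, let-418 had 21.3, and lin-65, hpl-2 and hda-1 had no pooled region. Of 4 synMuv A genes, lin-56 had one in its 5′ untranslated exon, at 92.6 and rank 1859, almost the last of the list. Of 4 genes of the Tip60 acetyltransferase complex there were 2, epc-1 (222) and the acetyltransferase gene mys-1 (99.5). None of the 4 paralogs of the set (efl-2, efl-3, rba-1 and mbtr-1) had one, and their strongest signal was 46.0, at mbtr-1. The suppressors of the synMuv phenotype had 2 of 8, zfp-1 (264), in an intron 10541 bp from its 5′ end, and the chromodomain protein gene mrg-1 (170).

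**Figure D4:**
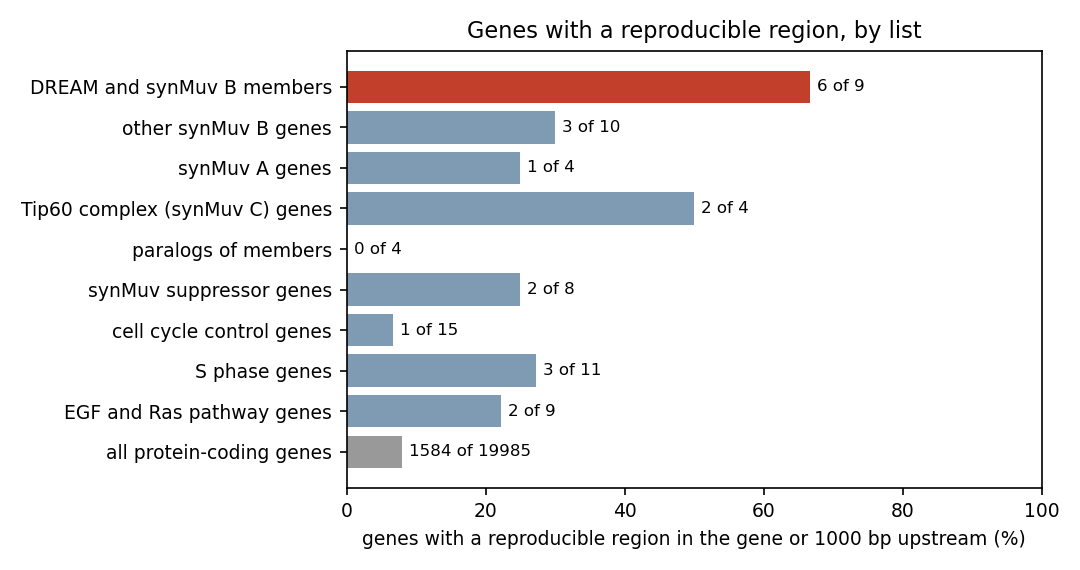
Share of genes with a reproducible region in the gene or 1000 bp upstream (horizontal axis, percent), for the 9 genes (red), 8 other lists (blue) and all protein-coding genes (grey), with the number of genes beside each bar. The 9 genes stand at 6 of 9, the lists at 0 of 4 to 2 of 4, and all genes at 1584 of 19985. As the 9 genes were chosen by their signal and rank in these data, nothing is read from the height of their bar. The 8 lists were chosen with earlier results of these data known, so nothing is read from their bars either.

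The remaining 3 lists cover the cell cycle, which DREAM acts on, and the vulval signal. Of 15 cell cycle control genes 1 had a reproducible region (6.67%, near the 7.93% of all genes), the cyclin E gene cye-1 (174, rank 570), in an intron 990 bp inside the gene. The genes for cyclin D (cyd-1, 22.1) and CDK-4 (cdk-4, 19.2), the kinase pair that acts on LIN-35, had weak regions only. Of 11 S phase genes there were 3: pcn-1 (243), for the sliding clamp PCNA, cdc-6 (134), for an origin licensing factor, and mcm-4 (105), for a subunit of the replicative helicase, each within 298 bp upstream of the 5′ end. Of 9 genes of the EGF and Ras pathway, through which the synMuv phenotype arises, there were 2, the MAP kinase gene mpk-1 (128), in an intron, and the adaptor gene sem-5 (105). lin-3, for the EGF ligand, had a signal of 26.4 in its 3′ untranslated region.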

How the data were processed

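Signal values (column 7 of narrowPeak lists) were used as the authors deposited them, for build ce11. The readme files deposited with them name, as the sources of a replicate's list, that replicate's alignments and 1 further file that they do not describe, and the labels name a possible control experiment. The readme files name both replicates for the pooled list, and IDR for the reproducible one. No source used here gives the aligner, peak caller or threshold, and control data were not analysed here. Coordinates count from 1, with genes from Ensembl release 115 and sequence from RefSeq, both of WBcel235, whose chromosome lengths hold all regions. Of the ce10 lists only the number of reproducible regions was used. Python 3.11.15 with pandas 2.3.3, NumPy 2.4.6 and SciPy 1.17.1 was used, and the assignment of summits to genes was tested on simulated data. The members and lists were chosen with earlier results of these data known, so no test was made. Named are the 9 genes, genes that share their regions, listed genes with a reproducible region and the 3 genes most like lin-54, with others added after their values were seen. A region counts for every gene whose body or 1000 bp upstream holds its summit. Alternatives were other reaches, an overlap of 1 bp, promoter windows, the nearest start, other thresholds, each replicate alone and wider sequence windows.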

Additional observations from a re-analysis of the deposited data

How the results depend on the processing

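No paired analysis was possible because there is 1 group of 2 replicates. The count of 6 genes did not change with a reach of 500 or 2000 bp, with an overlap of 1 bp, with promoter windows or with the 2878 strongest pooled regions, while the share of all protein-coding genes ran from 6.39% to 11.6% over these settings. It lay between 4 and 6 with 1 replicate left out, and it was 4 with the nearest start and with the stronger 50% of the list. The count of 14 of the 65 other listed genes was 6 with the stronger 50%, against 4.16% of all protein-coding genes. It was 10 to 13 with 1 replicate left out, against 7.69% and 7.9%. The median of the strongest signal over the 9 genes was 2.26 on the log2 scale over the list median, and 1.39 to 2.21 with 1 replicate left out, the lower value being that of replicate 1 alone; the cause was not tested. The share of the 6 windows with any of the 4 chosen sequences was 50%, against 28.2% of reproducible and 32.5% of weak regions. With 100 bp to either side it was 83.3%, against 49.0% and 54.2%. The count of 3 windows with GTGGAGCGC did not change at that width, an alternative chosen after seeing the data. The lists carry no read counts, so what depth limits could not be given.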
